A study of Mus musculus with 3 samples.

Results

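The microRNAs of the Hox clusters were examined in small RNA of primary aortic smooth muscle cells (AoSMC) grown from C57BL/6 mice. They were all the rows of the deposited tables named for mmu-miR-10a, mmu-miR-10b, mmu-miR-196a, mmu-miR-196b or mmu-miR-615 (written below without the prefix for mouse), at every locus. The rule used names and no measured value. It gave 16 of 2590 rows, 8 for miRs and 8 for moRs. A miR is the mature strand cut from a precursor hairpin, and a moR (miRNA-offset RNA) is a short RNA from the stretch of the hairpin just outside the miR. The rows came from 6 hairpins in 4 Hox clusters.

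The study had a single group of 3 libraries, called biological replicates 1 to 3, with no treatment and no genetic change. The cells were explanted from pooled aortas, cultured with 10% serum and harvested near confluence, so they stand for cultured cells and not for the vessel wall. The methods also name a medium with 5% stripped serum before experiments, and whether it was used for these libraries is not stated. Whether each library came from its own culture is not stated. The p-values concern ratios within each library, and the spread of these ratios between libraries may be technical. For edgeR, a method for read counts, that spread was estimated over all features of a comparison and not from 3 libraries alone. Levels are in RPMR, the reads of a window for each 1000000 reads that a library had in miR or moR windows. These windows held 12546339 to 15175671 reads per library, so that 1 read was worth 0.0659 to 0.0797 RPMR. The smooth muscle miRs miR-143-3p (50855 RPMR) and miR-145a-5p (1195 RPMR) were abundant, as the label has it, whereas 5 blood cell miRs together reached 0.880 to 1.28 RPMR. Sums were higher for the lists of endothelium (125 to 158 RPMR) and striated muscle (117 to 151 RPMR), the latter nearly all from miR-206-3p.

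Hox genes encode transcription factors that set position along the body axis, and each mammalian Hox cluster has the same order of genes along the chromosome as along the body. MicroRNA hairpins of the mir-10 and mir-196 families lie within these clusters, mir-10 in most animals with bilateral symmetry and mir-196 in vertebrates. A microRNA loads into an Argonaute protein and lowers the output of mRNAs that pair with its seed, bases 2 to 8 from the 5′ end. Hox mRNAs are among the known targets of both families; in mouse, miR-196 directs cleavage of the Hoxb8 mRNA. Mammals have mir-615 within Hoxc5.

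The mature sequences show how little separates the members within a family. They are RefSeq sequences on GRCm38.p6, the assembly that mm10 displays, read 5′ to 3′ with the seed in capitals. First come the mir-10 strands:
miR-10a-5p: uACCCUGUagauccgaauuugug
miR-10b-5p: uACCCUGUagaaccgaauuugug
miR-10a-3p: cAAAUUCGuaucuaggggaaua
miR-10b-3p: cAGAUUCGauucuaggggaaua

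The mir-196 and mir-615 strands with reads follow, with let-7a-5p added because its seed is related to that of mir-196:
miR-196a-5p: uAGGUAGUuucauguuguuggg
miR-196b-5p: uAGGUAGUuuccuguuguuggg
miR-196b-3p: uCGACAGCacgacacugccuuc
miR-615-3p: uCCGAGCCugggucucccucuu
let-7a-5p: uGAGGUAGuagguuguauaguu

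Counted from 1 at the 5′ end, miR-10a-5p and miR-10b-5p differed by U12A alone, with the base of miR-10a-5p first, and shared the seed ACCCUGU. In the same way miR-196b-5p and miR-196a-5p differed by C12A alone and shared the seed AGGUAGU. The 3p strands of mir-10 differed inside the seed, by A3G, and further along by U9A and A10U. Bases 2 to 7 of miR-196b-5p were the same 6 letters as bases 3 to 8 of let-7a-5p, so these seeds are offset by 1 base. The longest run shared by either 5p pair was 11 bases and that of the mir-10 3p pair was 12 bases. Reads had to be longer than 13 bases and to match the genome without a mismatch, so a read that met these demands within the mature sequences told the members of a pair apart.

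Mir10a lies on chromosome 11 at 96317165 to 96317274, plus strand, outside any other annotated gene and between Hoxb5 (11.0 kb away) and Hoxb4 (0.993 kb away). In the same cluster Mir196a-1 lies at 96265164 to 96265265, plus strand, in the long gap between Hoxb13 and Hoxb9 and 51.9 kb from Mir10a. Mir10b lies on chromosome 2 at 74726070 to 74726137, plus strand, in introns of Hoxd3 and Hoxd4. Mir196a-2 (chromosome 15, 102973350 to 102973434) and Mir615 (chromosome 15, 103014910 to 103015001) are both on the plus strand in introns of Hoxc5, 41.5 kb apart. Mir196b lies on chromosome 6 at 52230081 to 52230165, minus strand, overlapping an exon of Hoxa9. Positions are in mm10 with genes from GENCODE M21. The 12 miR windows of these hairpins were all the annotated miR windows within the clusters, and 0 others lay within 20 kb of them.

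**Figure D1:**
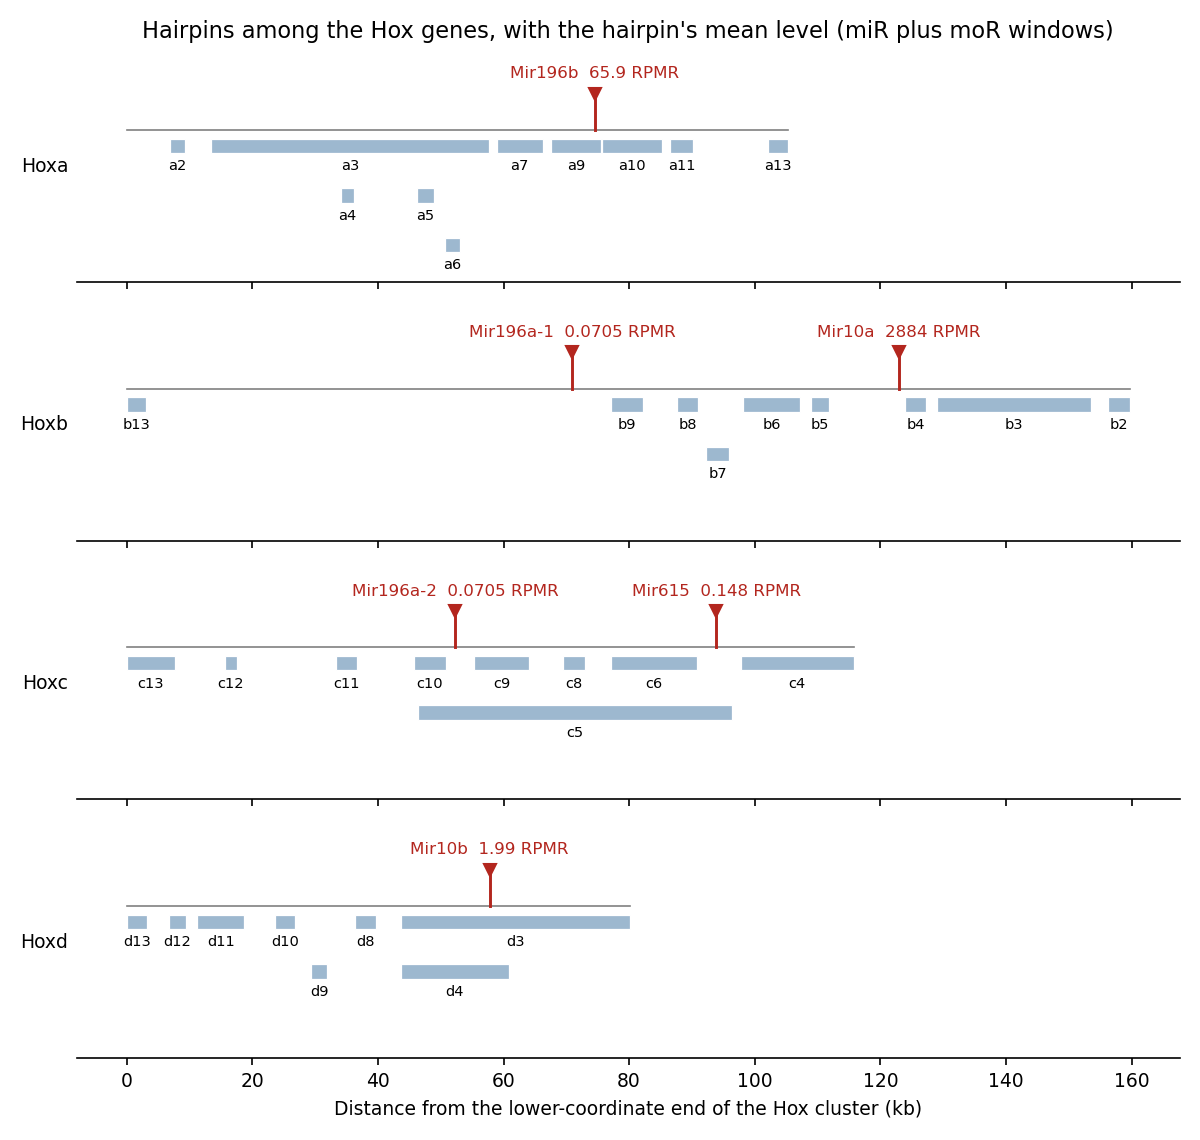
Map of the 4 Hox clusters, each drawn from its lower-coordinate end in kb, with Hox genes numbered 2 and above as boxes (a10 stands for Hoxa10, and so on) and each hairpin as a triangle with its mean level over 3 libraries in RPMR. Mir10a, at 2884 RPMR, stands beside Hoxb4, Mir196b (65.9 RPMR) in Hoxa9 and Mir10b (1.99 RPMR) in Hoxd3 and Hoxd4.

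Reads of these hairpins came almost wholly from 1 place. The 6 hairpins had 122047 reads in all, or 2953 ± 143 RPMR (SD, n = 3), which was 0.295% ± 0.0143 of all window reads. The Hoxb cluster gave 97.7% of them, nearly all from Mir10a, with 3 reads assigned to Mir196a-1. The Hoxa cluster gave 2.24%, the Hoxd cluster 0.0672% and the Hoxc cluster, with 9 reads assigned to 2 hairpins, 0.00737%. The 6 reads of miR-196a-5p match both copies of mir-196a. An even split put 3 at Mir196a-1 and 3 at Mir196a-2, so the cluster they came from is not known. Because this is RNA of whole cultures, fewer cells that carry a microRNA and less of it per cell cannot be told apart at any of these levels.

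Of 24 annotated windows of the 6 hairpins, 10 had reads, 8 of them for miRs and 2 for moRs. The windows without a read were those of miR-10b-3p, miR-196a-1-3p, miR-196a-2-3p and miR-615-5p and 10 moR windows. The windows were 28 to 29 bases for miRs and 39 bases for moRs, and levels are compared as reads without scaling by length. The number of reads that a molecule gives may differ between sequences. It was not measured here, and the p-values do not cover it, so ratios of reads need not be ratios of molecules.

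miR-10a-5p, the strand of Mir10a that carries the mir-10 seed, was at 3031, 2779 and 2766 RPMR in replicates 1, 2 and 3 (41312, 34866 and 41975 reads). Its mean was 2858 ± 149 RPMR, and it ranked 33rd of 1080 mature miRs by mean level. The coefficient of variation over libraries was 5.22%, below the lower quartile (7.47%) of the 281 miRs of at least 10 RPMR, whose median was 11.8%.

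miR-196b-5p was the next most abundant. It was at 56.3, 68.1 and 71.8 RPMR in replicates 1 to 3 (768, 855 and 1089 reads), with a mean of 65.4 ± 8.07 RPMR and rank 164. Replicate 1 was the lowest. The coefficient of variation was 12.3%, close to the median of 12.1% over the 65 other miRs within 2-fold of its level, so this spread was usual for the level. Per 100 reads of miR-10a-5p there were 1.86, 2.45 and 2.59 reads of miR-196b-5p. The endothelial miRs miR-126a-3p and miR-126a-5p were also lowest in replicate 1, with a sum of 125 RPMR against 158 and 155, as were those listed for striated muscle, at 117 against 151 and 150. Nearly all of the latter sum came from miR-206-3p, a skeletal muscle miR, at 138 RPMR, whereas the other 6 miRs of that list had means of at most 0.497 RPMR, with miR-133a-3p at 0.0163 RPMR and miR-208a-3p at 0. The smooth muscle sum was highest in replicate 1, at 57626 against 51113 and 47412 RPMR. The part of these differences in the level of miR-196b-5p was not tested.

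The other strand of Mir10a, miR-10a-3p, came after it, at 27.7, 24.8 and 24.5 RPMR (378, 311 and 372 reads), with a mean of 25.7 ± 1.78 RPMR. miR-10b-5p followed at 1.91, 2.15 and 1.91 RPMR, which were 26, 27 and 29 reads, with a mean of 1.99 ± 0.140 RPMR. The libraries did not overlap between any of these 4 strands, and the order miR-10a-5p, miR-196b-5p, miR-10a-3p, miR-10b-5p was the same in each library. The steps were 43.9-fold, 2.54-fold and 12.9-fold as geometric means of the ratio within each library, each in the same direction in 3 of 3 libraries. With 3 libraries the exact two-sided sign-flip permutation test gives no p below 0.25, the value it gave for each of these 3 steps.

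The remaining strands were near the limit of detection. miR-615-3p had 3, 2 and 1 reads and a mean of 0.148 ± 0.0777 RPMR. miR-196a-5p had 0, 2 and 4 reads, 0.141 ± 0.133 RPMR, divided evenly by the authors between Mir196a-1 and Mir196a-2 because both hairpins carry the same mature sequence. The windows that could tell these copies apart, the 3p miRs and the moRs, had no read. miR-196b-3p had 1, 1 and 2 reads, 0.0950 ± 0.0321 RPMR. The ranges of these 3 strands overlapped, so their order is within the spread.

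**Figure D2:**
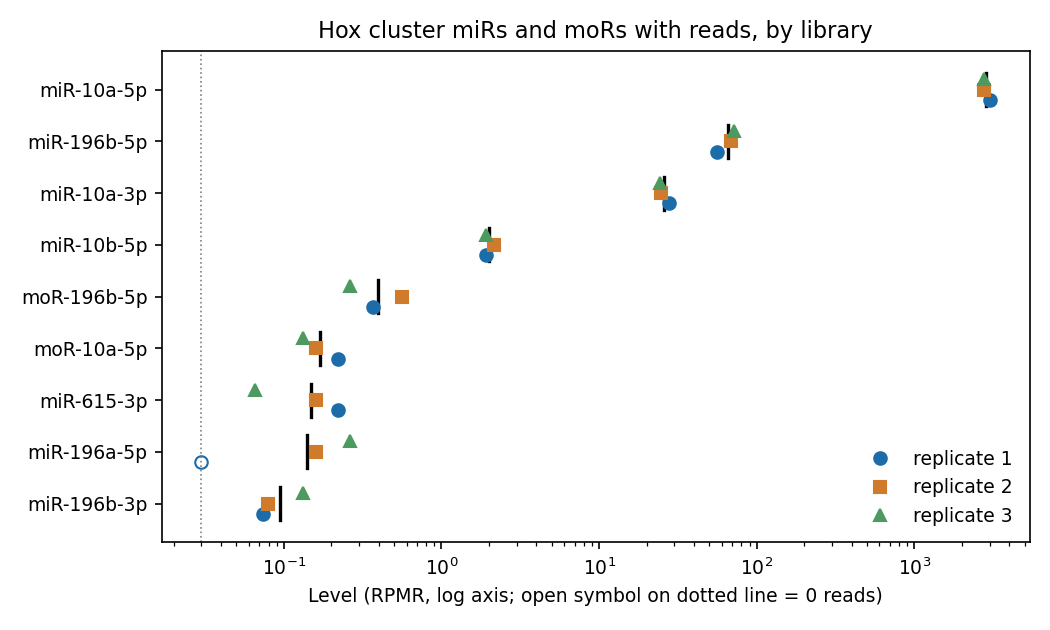
Level of each miR and moR with reads in each library, in RPMR on a log axis; symbols stand for libraries, the black bar for their mean and an open symbol for 0 reads. The first 4 miRs are separated in every library, whereas the ranges of miR-615-3p, miR-196a-5p and miR-196b-3p overlap.

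The miRs closest in level were found by the smallest maximum difference of log2(RPMR + 0.1) over the 3 libraries. For miR-10a-5p they were miR-152-3p (3073 RPMR), miR-191-5p (2571 RPMR) and miR-30c-5p (2549 RPMR), which differed from it by at most 0.30 on that scale in any library. For miR-196b-5p they were miR-26a-2-3p (66.5 RPMR), miR-34c-3p (63.1 RPMR) and miR-532-3p (68.1 RPMR). For miR-10a-3p they were miR-99a-3p (23.1 RPMR), miR-671-3p (27.4 RPMR) and miR-669b-5p (25.9 RPMR). The likeness is one of level over 3 libraries only.

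The first comparison asked which strand of each hairpin gave the more abundant miR. At 3 of 3 tested hairpins the 5p strand was higher, in a quasi-likelihood test of edgeR that kept the library as a block, with p-values adjusted (Benjamini-Hochberg) over all 433 hairpins with at least 10 reads. Across those hairpins 42.7% were called for the 5p strand and 45.5% for the 3p strand. Mir196a-1, Mir196a-2 and Mir615 had fewer than 10 reads and were not tested. All 6 reads of Mir615 were of its 3p strand, whereas those of mir-196a were of the 5p strand.

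At Mir10a, miR-10a-3p stood at 0.915, 0.892 and 0.886 reads per 100 reads of miR-10a-5p. The share was nearly the same in each library. The log2 difference of 5p over 3p was 6.80 ± 0.14 (SE), with an edgeR adjusted p of 2.3e-15. At Mir196b, the 5p and 3p strands had 768 and 1, 855 and 1, and 1089 and 2 reads in the 3 libraries. The log2 difference was 9.28, with an edgeR adjusted p of 2.4e-13. Its standard error from the test statistic, 0.30, is smaller than the counting error of the 4 reads of miR-196b-3p. Over the libraries together there were 0.147 reads of miR-196b-3p per 100 of miR-196b-5p, with an exact 95% interval of 0.0402 to 0.378. The share of the lesser strand was larger at Mir10a, with an interval of 0.845 to 0.954. These intervals cover counting error only, since reads of amplified libraries are not independent molecules, and the difference between the hairpins was not tested over libraries.

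At Mir10b, 82 reads of miR-10b-5p stood against 0 of miR-10b-3p, which makes the 5p strand at least 27.3-fold higher with a floor of 3 reads over the group; the edgeR adjusted p was 4.5e-07. A floor of 3 in 82 reads is a larger share than that of miR-10a-3p at Mir10a, so the 0 reads also allow a like share at Mir10b.

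**Figure D3:**
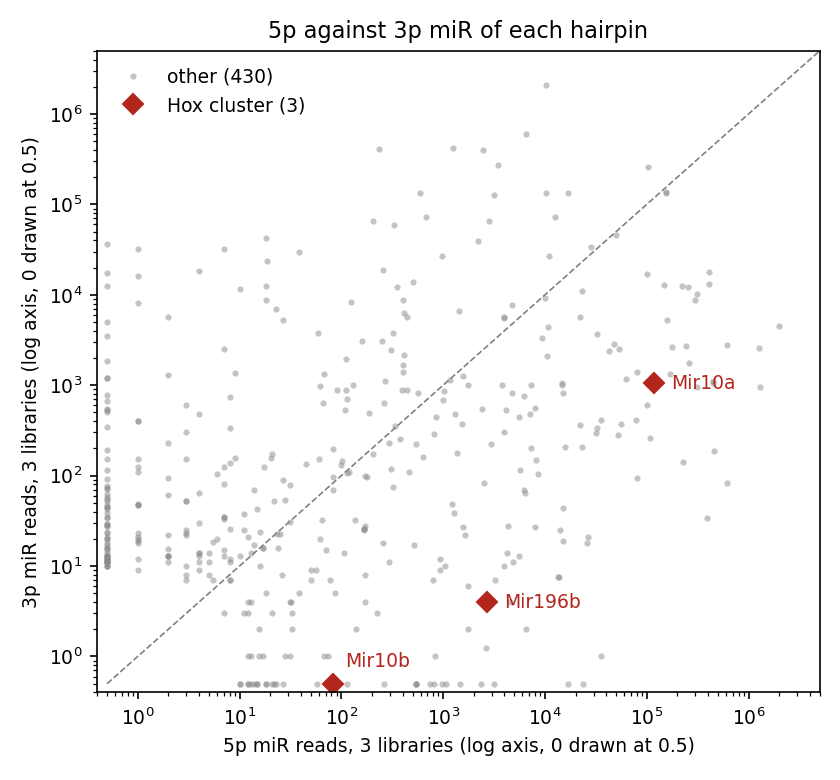
Reads of the 5p miR against the 3p miR of each of 433 hairpins, summed over 3 libraries on log axes, with 0 reads drawn at 0.5 and equality as a dashed line. Mir10a, Mir196b and Mir10b (red) lie on the 5p side of the line, among hairpins on either side of it.

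The sequence relatives of these families shared the direction. Of the miR-99 and miR-100 hairpins, whose 5p miRs resemble miR-10a-5p beyond the seed, 3 of 3 were higher for the 5p strand, with a median log2 difference of 10.40, and so were 12 of 12 hairpins of let-7 and miR-98, at a median of 7.02. The median over all 433 hairpins was -0.27. As sums over their strands, these relatives were also far more abundant than miR-10a-5p. Taken singly, let-7e-5p (1522 RPMR), miR-98-5p (553 RPMR) and every 3p strand of these lists were below miR-10a-5p, and the other 5p strands were above it. The sum of the miR-99 and miR-100 strands was 17.4 ± 1.45 times the level of miR-10a-5p, and that of let-7 and miR-98 was 39.7 ± 2.65 times it (SD, n = 3).

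The second comparison set the paralogs of each family side by side, as given by their names. Such pairs of miRs, with the same number and arm and another letter, numbered 411 over all names. They were formed without regard to sequence, and a miR can be in several pairs. Of these pairs, 92.7% were called as different in either direction, so that a difference between miRs so named was the rule in these cells. The 3 Hox cluster pairs were among those called. miR-10a-5p exceeded miR-10b-5p in every library, with 1589, 1291 and 1447 reads of the former for each read of the latter. The log2 difference was 10.48, with an edgeR adjusted p of 2.6e-09. The Hoxb copy of this seed was thus higher than the Hoxd copy by a factor of 1441 over all reads, with an exact 95% interval of 1161 to 1812. The counting error in that interval is larger than the standard error from the test statistic, 0.09 on the log2 scale.

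miR-196b-5p, from the Hoxa cluster, exceeded miR-196a-5p, whose sequence lies in both the Hoxb and Hoxc clusters, by 768 to 0, 855 to 2 and 1089 to 4 reads. The fitted log2 of miR-196a-5p over miR-196b-5p was -8.74, with an edgeR adjusted p of 1.7e-07. The exact interval of the ratio over all reads ran from 207-fold to 1233-fold. The standard error derived from the test statistic, 0.26 on the log2 scale, is smaller than the counting error that this interval reflects. The size rests on few reads of miR-196a-5p. Without replicate 3 the log2 was -9.50 and the mean level of miR-196a-5p 0.0797 RPMR, and without replicate 1 they were -8.28 and 0.211 RPMR, with the call kept. For the 3p strands, 1061 reads of miR-10a-3p stood against 0 of miR-10b-3p, at least 354-fold more with a floor of 3 reads over the group (edgeR adjusted p 6.3e-06).

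To place the low share of miR-10b-5p, all pairs of mature miRs of equal length that differ at 1 base were listed where the higher had at least 10000 reads, a choice made after the values were seen. In 13 such pairs, miR-10b-5p per miR-10a-5p was the second lowest, at 0.0629%, 0.0774% and 0.0691% in the 3 libraries. The lowest was miR-106a-5p per miR-17-5p, at 0.0307% over all reads, then followed miR-29c-3p per miR-29a-3p at 0.275%, and the other 10 pairs lay between 14.0% and 86.8%. A read of the higher miR with a wrong base at the position that differs would match the lower miR, and how many of the 82 reads of miR-10b-5p arose so was not tested. The sum of 6 reads of miR-196a-5p was 0.221% of the reads of miR-196b-5p, with an exact interval of 0.0811% to 0.482%, and the same holds for these.

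**Figure D4:**
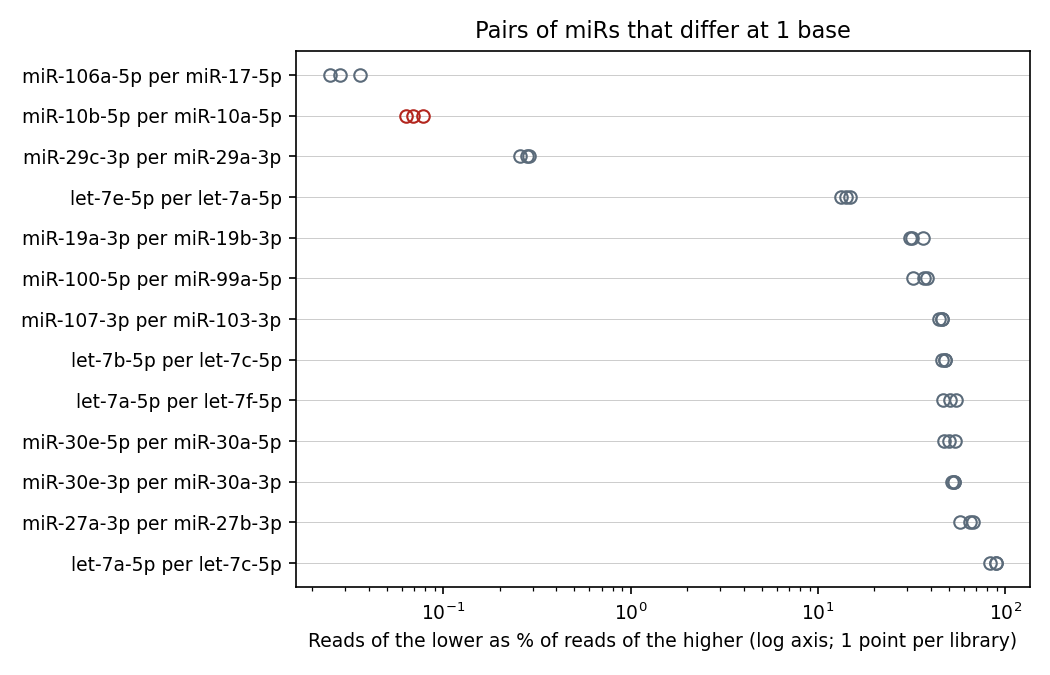
Reads of the lower miR as a percent of the reads of the higher miR in 13 pairs that differ at 1 base, on a log axis with 1 point per library. miR-10b-5p per miR-10a-5p (red) lies at 0.0629% to 0.0774%, far to the left of the 10 pairs between 14.0% and 86.8% over all reads.

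The third comparison concerned moRs. Only the 5p sides of Mir196b and Mir10a gave any. The part of each moR window that lies within the annotated hairpin is shown, with the first 4 bases of the miR, which the window reaches over, in capitals; the windows extend further outward, and the ends of the moR reads themselves were not used here.
moR-10a-5p: gaccugucugucuucuguauaUACC
moR-196b-5p: aacuggucggugauuUAGG

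moR-196b-5p had 5, 7 and 4 reads, or 0.367, 0.558 and 0.264 RPMR, with a mean of 0.396 ± 0.149 RPMR and rank 62 of 276 moRs with reads. moR-10a-5p had 3, 2 and 2 reads, or 0.220, 0.159 and 0.132 RPMR, with a mean of 0.170 ± 0.0452 RPMR and rank 105. Both means lay below the level from which the paper lists a moR as expressed. The libraries of the 2 moRs did not overlap, although the miR beside moR-10a-5p was far more abundant than the miR beside moR-196b-5p. The ratio of the moRs over all reads was 2.29-fold with an exact interval of 0.890 to 6.57, so that their difference lay within counting error.

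The 5p moR of Mir196b was called higher than its 3p moR (edgeR adjusted p 0.0015). There were 16 reads against 0, at least 5.33-fold with a floor of 3 reads over the group. Among all 82 hairpins tested for this, 80.5% were called for the 5p moR and 12.2% for the 3p moR. The call was lost without replicate 3 (edgeR adjusted p 0.063), where 12 reads remained, and the adjusted p ranged from 0.00021 to 0.063 over the alternatives that tested it. With replicate 2 left out, 9 reads remained and no test was made. Mir10a, with 7 moR reads, was below the minimum of 10 reads.

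Each moR was lower than the miR of the same arm. Of the 243 arms with a moR read and at least 10 reads in all, 91.8% were called for a higher miR and 5.76% for a higher moR. There were 0.651, 0.819 and 0.367 reads of moR-196b-5p per 100 of miR-196b-5p in the 3 libraries. The log2 difference of moR over miR was -7.36 ± 0.32 (SE), with an edgeR adjusted p of 4.3e-78. For Mir10a there were 0.00726, 0.00574 and 0.00476 reads of moR-10a-5p per 100 of miR-10a-5p, a log2 difference of -13.97 ± 0.45 with an edgeR adjusted p of 4.6e-115. The size of these p-values rests on a spread estimated over all arms and not on 3 libraries alone. The standard errors are also smaller than the counting error of 16 reads of moR-196b-5p and 7 of moR-10a-5p. The median log2 difference over all 243 arms was -8.67. Ordered from the lowest ratio, miR-10a-5p was number 28 and miR-196b-5p number 148 of the 243 arms. Arms without a moR read have no place in this order.

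Relative to its miR, the moR of Mir196b was thus more frequent than that of Mir10a in 3 of 3 libraries. The mean difference was 6.64 ± 0.46 on the log2 scale (SD, n = 3), with p = 0.25 in the exact two-sided sign-flip permutation test, the smallest p that 3 libraries allow. On that scale miR-10a-5p exceeded miR-196b-5p by 5.46, whereas moR-196b-5p exceeded moR-10a-5p by 1.18. The difference in the ratios thus mostly reflects the levels of the miRs, and that of the moRs lay within counting error. The exact intervals of the 2 ratios over all reads, 0.337 to 0.960 and 0.00238 to 0.0122 reads per 100, did not overlap. They cover counting error only and leave out the spread between libraries.

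**Figure D5:**
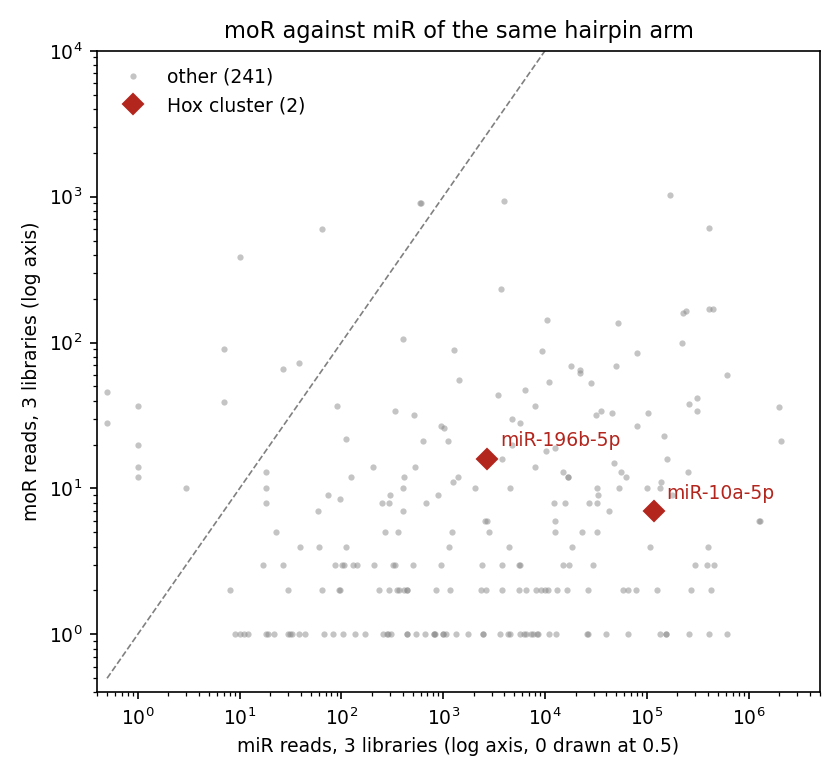
Reads of the moR against reads of the miR on the same arm for 243 arms, summed over 3 libraries on log axes, with equality as a dashed line. The arms of miR-196b-5p (16 moR reads for 2712 miR reads) and miR-10a-5p (7 moR reads for 118153 miR reads) are in red, and both lie below the line.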

How the data were processed

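Small RNA of 3 AoSMC libraries had been sequenced as single reads of 75 bases. According to the methods, the authors mapped inserts of over 13 bases to mm10 with Bowtie (its version is not given in the sources used here), without mismatches and at no more than 5 places. The deposited expected counts are reads per window, with reads near several precursors divided between them, so that 172 of 2590 rows hold values that are not whole. The miR window is the mature sequence widened by 3 bp, and the moR window runs from 3 bp inward to 35 bp outward of its outer end. The authors deposited the same values as RPMR, an RPM over the reads in all windows. These were recomputed to within 2.3e-10. Deposited window positions were read as 1-based, since 1675 of 1685 windows then begin 3 bases before the RefSeq mature sequence.

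Counts were rounded and tested by the quasi-likelihood method of edgeR 4.0.16 in R 4.3.3, with window totals as library sizes and the library as block. The block follows from the design, because both kinds of RNA come from the same library. Features with at least 10 reads entered, Benjamini-Hochberg adjustment was over all features of a comparison, and adjusted p under 0.05 was called. An annotated window that is not listed entered as 0 reads. The standard error is the log2 difference over the square root of the F statistic. Where 1 side has few reads it can be smaller than the counting error, which the exact intervals give. The tests were tried on simulated data, where large differences were recovered except for some between moRs, and moderate ones at the low read numbers of moRs were often missed. Intervals are exact (Clopper-Pearson, 95%), from SciPy 1.17.1, and the floor is 3 reads over the group. Alternatives were DESeq2 1.42.0, all mapped reads or TMM as scaling, minima of 30 reads or 1 read, no block, and leaving out each library.

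All rows of the named microRNAs were reported, with the miRs closest in level and lists of relatives and of cell type markers. Of the markers for neurons, miR-124-3p was at 0 and miR-9-5p at 12.2 RPMR; the epithelial list summed to 7.49 to 8.14 RPMR and miR-122-5p of liver was at 1.64 RPMR. The members and lists were chosen with earlier results of these data known.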

Additional observations from a re-analysis of the deposited data

How the results depend on the processing

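Of 79 alternative values for the log2 differences of Hox cluster pairs, 78 kept their direction and their call and 0 reversed. The exception was the 5p over 3p moR of Mir196b without replicate 3, at a log2 of 5.61 (edgeR adjusted p 0.063); the cause was not tested. Leaving out 1 library gave 5.49 to 5.61 where it could be tested. It could not be tested at a minimum of 30 reads or without replicate 2. Without the replicate block the log2 difference of Mir10a was 6.80, that of Mir196b 9.27 and that of the Mir196b moRs 5.45, and no call changed. Over all hairpins, the number with a higher 3p moR was 5 by DESeq2 and 5 at a minimum of 30 reads, in place of 10, and 4 to 6 with 1 library left out. The number with a higher 5p moR was 51 by DESeq2 and 42 at a minimum of 30 reads, in place of 66, and 38 to 55 with 1 library left out. The number of arms with a moR above its miR was 14, and 7 to 12 with 1 library left out. The cause was not tested. Fewer features entered at a minimum of 30 reads or with 1 library left out, whereas DESeq2 tested the same 82 hairpins. Per 1000000 mapped reads, which include reads outside the windows, levels were lower by construction: 2263 for miR-10a-5p, 52.2 for miR-196b-5p, 20.3 for miR-10a-3p and 1.58 for miR-10b-5p. The copies of mir-196a could not be compared under any setting, since neither their 3p miRs nor their moRs had a read. Depth limits every statement on miR-615-3p, miR-196a-5p, miR-196b-3p and the moRs, each at 16 reads or fewer.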
